A study of Mus musculus with 16 samples.

Results

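Ribosomal protein pseudogenes were described as the genes whose symbol joins the name of a ribosomal protein gene to the ending -ps, with or without a number, and whose mean over all 16 libraries was at least 1 CPM, the count of a gene scaled to the total of its library. Of 56980 genes in the deposited table, 322 carried such a symbol and 185 of these reached 1 CPM. These 185 members comprised 102 copies of large subunit genes and 83 copies of small subunit genes, and belonged to 52 parent genes, the parent being the gene whose symbol precedes the ending. The members were chosen by their mean CPM over all libraries, so their levels are given as a description. Among the 3 members just inside the limit was Rpl7a-ps3, with a mean of 1.19 CPM. The 3 symbols just outside it were Rpl37-ps1, Rpl21-ps10 and Rpsa-ps11, with means of 0.997, 0.992 and 0.880 CPM. Among the 137 symbols below the limit, 15 were at 0 in every library.

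The 16 libraries came from primary mouse microglia, the macrophages of the brain, which were shaken off mixed glial cultures of newborn cortex and hippocampus. The 4 groups of 4 libraries were wild type (WT) or Grn KO cells, each kept for 72 h with the vehicle DMSO or with 2 uM rimeporide, an inhibitor of sodium-proton exchangers. Grn encodes progranulin, a secreted protein that is taken to lysosomes, and the labels do not describe the KO allele. As a check of the labels, Grn had 1863, 1622, 1646 and 1785 CPM in the WT libraries with DMSO and 10.9, 15.1, 12.3 and 12.3 CPM in the KO libraries with DMSO, and with rimeporide it lay between 1566 and 1629 CPM in WT and between 13.6 and 24.2 CPM in KO.

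Ribosomal proteins are made in large amounts in every growing cell, and their mature mRNAs have been copied back into mammalian genomes many times. Such a copy, a processed pseudogene, carries no introns and usually no promoter of its own, and is scattered far from its parent. Because the copies are close to the parent's mRNA in sequence, a short read from one can often be placed on several genes, and an estimate of its count depends on how the counting tool divides such reads.

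The degree of likeness is shown by the coding sequences of 4 parents and of the copies that the results below turn on, taken from the GENCODE M21 transcripts (GRCm38) with positions counted from 1 at the first base of the parent's start codon. Capitals mark bases that differ from the parent, and no capitals mean no difference. Rps12, a small subunit protein gene on chromosome 10, had 22 members, the most of any parent. The first 270 of its 399 coding bases are set beside those of Rps12-ps9 on chromosome 8 and of Rps12-ps6 and Rps12-ps11 on the X chromosome, which differ from it at 2, 10 and 8 positions. These are all the differences over the 399 bases.
Rps12: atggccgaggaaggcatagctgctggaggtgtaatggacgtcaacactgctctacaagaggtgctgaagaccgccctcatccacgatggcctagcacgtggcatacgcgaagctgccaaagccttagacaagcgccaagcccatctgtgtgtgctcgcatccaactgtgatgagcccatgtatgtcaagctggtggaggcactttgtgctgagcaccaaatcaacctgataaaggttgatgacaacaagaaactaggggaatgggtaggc
Rps12-ps9: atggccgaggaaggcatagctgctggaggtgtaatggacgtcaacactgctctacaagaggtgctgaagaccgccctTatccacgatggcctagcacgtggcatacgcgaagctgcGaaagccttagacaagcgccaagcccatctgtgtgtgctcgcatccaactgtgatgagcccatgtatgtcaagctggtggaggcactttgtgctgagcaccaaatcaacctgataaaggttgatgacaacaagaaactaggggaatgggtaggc
Rps12-ps6: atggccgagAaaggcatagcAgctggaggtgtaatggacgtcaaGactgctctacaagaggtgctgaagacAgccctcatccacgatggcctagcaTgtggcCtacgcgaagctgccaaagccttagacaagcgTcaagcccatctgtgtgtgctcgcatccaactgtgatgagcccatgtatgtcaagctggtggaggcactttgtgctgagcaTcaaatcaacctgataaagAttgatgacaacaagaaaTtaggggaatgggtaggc
Rps12-ps11: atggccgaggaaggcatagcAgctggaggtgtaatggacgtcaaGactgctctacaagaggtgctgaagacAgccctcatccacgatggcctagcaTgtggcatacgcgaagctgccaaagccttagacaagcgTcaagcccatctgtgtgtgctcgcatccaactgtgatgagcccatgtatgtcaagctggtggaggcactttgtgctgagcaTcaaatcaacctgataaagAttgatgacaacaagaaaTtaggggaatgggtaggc
Rpl10 lies on the X chromosome and Rpl10-ps3, the most abundant member, on chromosome 9. The last 120 coding bases (positions 526 to 645) are shown with those of Rpl10-ps1 on chromosome 2 and Rpl10-ps2 on chromosome 8, since the first 2 copies do not differ from the parent here and the third differs at 3 positions.
Rpl10: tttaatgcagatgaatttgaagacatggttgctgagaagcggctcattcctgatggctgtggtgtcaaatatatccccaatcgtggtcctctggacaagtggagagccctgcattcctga
Rpl10-ps3: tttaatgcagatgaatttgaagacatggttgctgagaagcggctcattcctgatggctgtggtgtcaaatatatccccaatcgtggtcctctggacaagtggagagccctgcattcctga
Rpl10-ps1: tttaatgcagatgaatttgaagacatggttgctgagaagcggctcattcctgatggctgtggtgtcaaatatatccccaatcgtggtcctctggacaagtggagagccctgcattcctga
Rpl10-ps2: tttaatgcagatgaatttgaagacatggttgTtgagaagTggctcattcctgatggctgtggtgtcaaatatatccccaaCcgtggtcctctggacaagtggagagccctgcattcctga
The whole coding sequence of Rpl38 (chromosome 11), 213 bases, is given with that of Rpl38-ps1 (chromosome 4), a member with one of the smallest p-values for KO against WT in DMSO, which differs at 4 positions.
Rpl38: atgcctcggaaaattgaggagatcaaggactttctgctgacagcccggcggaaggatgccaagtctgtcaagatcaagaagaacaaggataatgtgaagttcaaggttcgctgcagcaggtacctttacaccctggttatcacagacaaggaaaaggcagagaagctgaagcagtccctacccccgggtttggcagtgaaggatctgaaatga
Rpl38-ps1: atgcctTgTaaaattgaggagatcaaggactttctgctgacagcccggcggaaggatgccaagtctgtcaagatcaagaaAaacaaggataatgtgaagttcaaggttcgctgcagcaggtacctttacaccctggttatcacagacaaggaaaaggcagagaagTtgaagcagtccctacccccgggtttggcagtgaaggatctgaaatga
The last 150 coding bases of Rpl32 (chromosome 6, positions 259 to 408) are given with those of Rpl32-ps (chromosome 3), one of the few members without any read-length stretch in common with another gene. This stretch of the copy differs at 6 positions.
Rpl32: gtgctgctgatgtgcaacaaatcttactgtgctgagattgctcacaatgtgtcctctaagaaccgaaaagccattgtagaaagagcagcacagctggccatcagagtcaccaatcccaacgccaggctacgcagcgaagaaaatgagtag
Rpl32-ps: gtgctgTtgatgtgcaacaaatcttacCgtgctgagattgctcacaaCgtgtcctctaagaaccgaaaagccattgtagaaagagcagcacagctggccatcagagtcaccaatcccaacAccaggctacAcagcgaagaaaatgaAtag

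In the GENCODE M21 annotation 184 of the 185 members were found, on 20 chromosomes, with 27 on the X chromosome. The annotation called 171 of them processed pseudogenes, 7 transcribed processed pseudogenes and 6 protein-coding, among the last Rpl10-ps3, Rpl9-ps6 and Rpl36a-ps1. Over the part of the parent's coding sequence that could be aligned, the members had a median identity of 98.6%, with a range from 87.5% to 100%. The aligned part was most or all of the coding sequence in nearly every member, but as little as 2.12% in a single case. The whole parental coding sequence was held without a change by 11 members. A reading frame of the parent's full length was kept in 93 members. When each transcript was cut into all its stretches of 75 bases, the length of the reads, a median of 44.7% of a member's stretches occurred in no other annotated gene and 33.3% occurred in the parent. No stretch was the member's own in 32 members, and every stretch was its own in 3. These shares cover the whole transcript, while the reads come from its 3' end. Over the last 300 bases the share of own stretches could be lower, as in Rpl36a-ps1 (5.75% against 43.2%). It could also be higher, as in Rpl10-ps3 (12.4% against 4.03%).

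The members together took 0.665% of all counts and their parents 4.09%. Rpl10-ps3 alone held 17.4% of the member counts and the 12 most abundant members 44.2%, with a median over the members of 13.8 CPM and 144 members at 5 CPM or more. These values are counts of 3' tags, of which a transcript gives 1 whatever its length, and they were not divided by length. After Rpl10-ps3, with a mean of 1161 CPM, came Rps27a-ps3 at 349 CPM, Rps23-ps1 at 290.3 CPM, Rps23-ps2 at 241 CPM, Rps2-ps10 at 149 CPM and Rps26-ps1 at 137 CPM. Rps27a encodes a ribosomal protein fused to ubiquitin, and the Rps23 protein lies at the decoding site of the small subunit. Rps27a-ps2 had 127 CPM, and the last 5 of the 12, Rpl9-ps6, Rpl7-ps7, Rps7-ps3, Rps16-ps2 and Rpl36a-ps1, lay between 102 and 105.5 CPM. Neighbours in this lower group overlapped in their ranges over the libraries. Of the values above 0, 99.5% were not whole numbers in the members and 99.6% in the parents, against 35.5% over all genes.

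Before the comparisons, 3 libraries of 1 group stood apart. Replicates 1, 3 and 4 of KO with DMSO had totals of 7929499, 6659436 and 6660582 counts, more than any other library. The next was replicate 3 of KO with rimeporide with 5966784, and the lowest was replicate 2 of WT with DMSO with 3666413. Replicate 2 of KO with DMSO had 4422263 counts. Of the 185 members, 135 had their lowest CPM of all 16 libraries in replicate 4 of KO with DMSO, 27 in replicate 1 and 11 in replicate 3, and 1 in replicate 2. The highest CPM fell in replicate 3 of KO with rimeporide for 72 members and in replicate 3 of WT with rimeporide for 61. Lowest and highest libraries were not counted over all genes. RNA integrity numbers were 10 in all DMSO libraries. The libraries of KO with DMSO are therefore taken with and without these 3 below.

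Summed over the members, the level in the 4 libraries of WT with DMSO was 7511, 8123, 7513 and 6365 CPM, in replicate order, and in KO with DMSO it was 4973, 6921, 4909 and 4201 CPM. With rimeporide it was 7012, 6716, 8606 and 6310 CPM in WT and 7418, 7561, 8342 and 6864 CPM in KO. Replicates 1, 3 and 4 of KO with DMSO lay below every other library, while replicate 2 of that group lay within the range of WT with DMSO. The parents' sum varied less, from 38958 to 43005 CPM in WT with DMSO, from 34036 to 40190.5 CPM in KO with DMSO and from 39863 to 45519 CPM over the 8 rimeporide libraries. Without Rpl10-ps3 the DMSO groups had member sums of 6129 ± 677 CPM (WT, SD, n = 4) and 4140.0 ± 1137 CPM (KO), and the rimeporide groups 6003 ± 1027 and 6420.3 ± 671 CPM. In these bulk samples fewer cells of a type and less RNA per cell cannot be told apart.

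**Figure D1:**
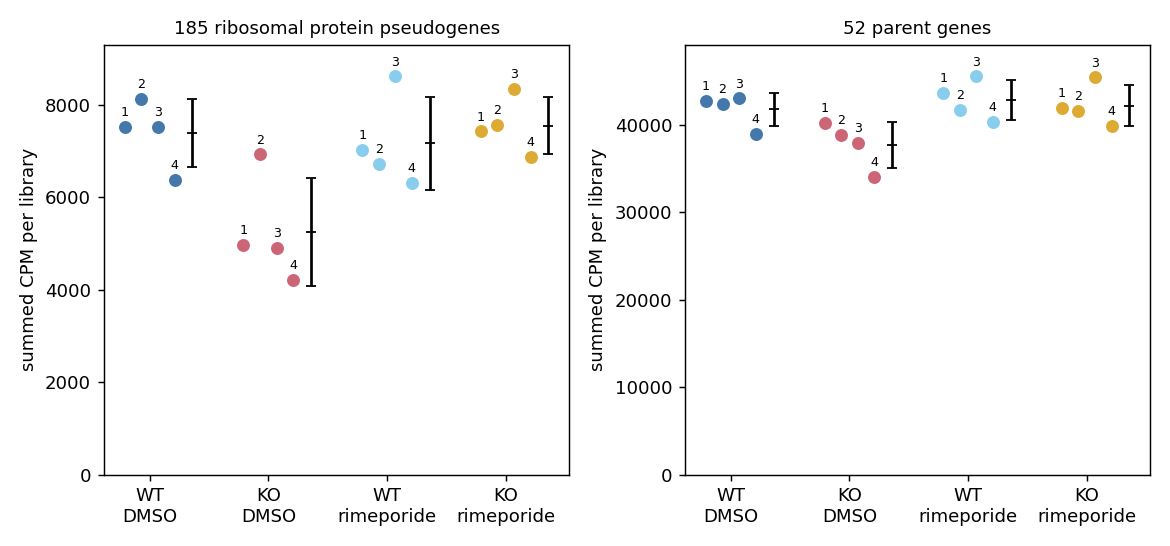
Summed CPM of the 185 pseudogenes (left) and of their 52 parent genes (right) in each library, by group, with replicate numbers above the points and the mean with SD (n = 4) beside them. Replicates 1, 3 and 4 of KO with DMSO have pseudogene sums from 4201 to 4973 CPM, and the other 13 libraries lie between 6310 and 8606 CPM.

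The first question was what the loss of Grn changed in vehicle. Of the 177 members that passed the filter on low counts, 108 fell in KO against WT in DMSO and 0 rose (edgeR's quasi-likelihood test, Benjamini-Hochberg adjusted p under 0.05). Over all 12272 genes tested 8.56% fell and 10.1% rose, and 61.0% of the members fell. The median log2 fold change was -0.78 over the members and 0.01 over all genes, and 174 members had a negative value. Changes of the members that fell ran from -1.84 to -0.25. The 8 members that were not tested had means from 1.00 to 1.47 CPM.

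The count moved with the libraries in the fit. In 151 of the 185 members, replicates 1, 3 and 4 of KO with DMSO were all below every library of WT with DMSO. In 156 members replicate 2 was inside or above the WT range. The share of all genes with either pattern was not counted. The 4 against 4 ranges did not overlap in 25 of the tested members, or in 6.79% of all genes in that direction. Over all genes 2287 passed in either direction with all libraries. Leaving out replicate 2 of KO with DMSO gave 148 members that fell (median -1.12) and 3345 genes in all. Leaving out replicate 4, 1 or 3 of that group gave 52, 56 or 69 members, with medians of -0.64, -0.70 and -0.74, and 1532, 1430 or 1748 genes in all. Leaving out replicate 2 of WT with DMSO gave 71 members (median -0.74) and 1657 genes. In the fits with fewer members called, fewer of all genes were called as well. With all 3 deep libraries left out, 0 members and 423 of all genes passed and the members' median was -0.08, in a fit where the single remaining library of KO with DMSO is assumed to vary like the other groups. With the log2 total count as a covariate 40 members fell, 22.6% of those tested, with a median of -0.60, and 1151 of all genes passed. The total count and the group cannot be told apart in these 3 libraries.

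The 6 members with the smallest p in this comparison were Rps12-ps6, Rpl38-ps1, Rpsa-ps9, Rps12-ps4, Rps12-ps9 and Rpl31-ps16. Rps12-ps6 had 50.6, 53.9, 44.8 and 38.4 CPM in WT and 17.4, 38.5, 17.98 and 14.5 CPM in KO, in replicate order. The lowest WT library and replicate 2 of KO had nearly the same level, and the other 3 KO libraries lay far below. The log2 fold change was -1.12 ± 0.21 (SE, n = 4, edgeR adjusted p = 0.000627), or 2.18-fold lower.

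Rpl38-ps1, of which 92.9% of the read-length stretches are its own, had 41.5, 43.9, 39.0 and 25.5 CPM in WT and 18.5, 26.7, 16.7 and 10.8 CPM in KO. It fell by 1.07 ± 0.20 on the log2 scale (edgeR adjusted p = 0.000680). Here too replicate 2 of KO was the highest of its group and overlapped the lowest WT library. Its parent Rpl38, whose loss in mice is known to alter the pattern of the skeleton, also fell, by 0.29 ± 0.09 (edgeR adjusted p = 0.0317).

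Rpsa-ps9 copies the gene of a small subunit protein also known as a laminin receptor. It had 7.94, 8.07, 6.94 and 5.41 CPM in WT and 2.25, 2.63, 2.58 and 1.78 CPM in KO, so that the groups did not overlap and replicate 2 of KO was low as well. The log2 fold change was -1.60 ± 0.31 (edgeR adjusted p = 0.000745), while that of Rpsa, -0.17 ± 0.09, did not pass (adjusted p = 0.214). Rpl31-ps16 had 19.2, 18.3, 16.5 and 13.2 CPM in WT and 6.56, 11.1, 7.07 and 4.38 CPM in KO, again without overlap. It fell by 1.25 ± 0.26 (edgeR adjusted p = 0.00144). Rpl31, a large subunit protein gene, had a log2 fold change of -0.08 ± 0.09, which did not pass.

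By family, 42 of the 52 parents had at least 1 member that fell. Rps12 had 17 of 22 members that fell, with a median log2 fold change of -0.99, and Rps12 itself fell by 0.29 ± 0.06 (edgeR adjusted p = 0.00276). All 6 Rpl30 members, all 5 Rps15a members and all 4 Rps13 members fell. None of the 5 Rpl19 members passed in this comparison, with values between -0.66 and -0.51. The 3 members with values above 0 were Rps27a-ps1 (0.11), Rps26-ps1 (0.11) and Rpl36-ps12 (0.04), and none of them passed.

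The 9 Rps12 copies on the X chromosome that keep the whole frame form a group of near-identical sequences, and 8 of them have no read-length stretch of their own. Their means lay between 38.2 and 39.5 CPM. All 9 fell, with changes from -1.12 to -0.82. Since they share almost all their sequence, they are not 9 separate observations. Their summed level was 437, 507, 413 and 310.2 CPM in WT with DMSO and 167, 374, 167 and 147 CPM in KO with DMSO, so that replicate 2 of KO again lay within the WT range.

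Among the most abundant members changes were smaller. Rpl10-ps3 had 1254, 1313, 1256 and 1174 CPM in WT and 1172, 1154, 1035 and 1083 CPM in KO, groups that do not overlap. Its log2 fold change of -0.18 ± 0.07 did not pass (edgeR adjusted p = 0.0944). Its parent Rpl10, a large subunit protein added late in ribosome assembly, had 1174, 1389.5, 1243 and 935 CPM in WT and 620, 1074, 665 and 553 CPM in KO, and fell by 0.71 ± 0.15 (adjusted p = 0.00222). Rpl10-ps1, with a coding sequence identical to that of Rpl10, had 81.0, 85.9, 77.6 and 54.8 CPM in WT and 25.5, 70.4, 33.7 and 23.6 CPM in KO, and fell by 1.00 ± 0.24 (adjusted p = 0.00572). In replicates 1, 3 and 4 of KO all of these genes lay below every WT library. Of the read-length stretches of Rpl10-ps3, 96.0% occur in Rpl10.

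Of the other 11 most abundant members 8 fell: Rps27a-ps3, Rps23-ps1, Rps23-ps2, Rps2-ps10, Rps27a-ps2, Rpl7-ps7, Rps7-ps3 and Rps16-ps2. Rps23-ps1 had 315, 330.2, 315 and 280.4 CPM in WT and 260.1, 288, 243 and 201 CPM in KO, and fell by 0.33 ± 0.10 (edgeR adjusted p = 0.0183). Rps23 itself was at 2332, 2201, 2341 and 2342 CPM in WT and 2918, 2053, 2545 and 2418 CPM in KO, which did not pass. Rps16-ps2, whose every read-length stretch also occurs in Rps16, had 115, 123, 119 and 95.8 CPM in WT and 65.3, 104, 65.9 and 61.1 CPM in KO, and fell by 0.63 ± 0.14 (adjusted p = 0.00312). Rps26-ps1, Rpl9-ps6 and Rpl36a-ps1 did not pass, with values of 0.11, -0.13 and -0.21.

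By level, the members were as follows. Among the 35 members at 50 CPM and over, 27 fell and the median log2 fold change was -0.54. Between 20 and 50 CPM 34 of 45 fell (median -0.78), and between 5 and 20 CPM 39 of 64 (median -0.83). Of 41 members from 1 to 5 CPM 33 were tested and 8 fell, with a median of -0.96. The lower bins had medians further from 0, and the lowest had the smallest share that passed. The bins were not tested against each other.

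The second question was what rimeporide changed. In KO cells 135 of the 177 members rose with rimeporide against DMSO and 0 fell, where 8.43% of all genes rose and 6.35% fell. That is 76.3% of the members, with a median log2 fold change of 0.97 against -0.01 over all genes and a range among those that rose from 0.30 to 2.56. The libraries of the 2 treatments did not overlap for 64 members, and 6.07% of all genes were separated in that direction. This comparison shares the libraries of KO with DMSO with the one above, so its values are not a second measurement, and the 99 members that fell in KO with DMSO and rose with rimeporide in KO are set by the same 4 libraries. Replicates 1, 3 and 4 of KO with DMSO lay below every library of KO with rimeporide in 157 of the 185 members, a pattern not counted over all genes. Over all genes 1813 passed in either direction with all libraries. Leaving out replicate 2 of KO with DMSO gave 162 members that rose and 1 that fell, and 3002 genes in all. Leaving out its replicate 4 or 1 or replicate 3 of KO with rimeporide gave 77, 85 or 78 members that rose, with medians of 0.83, 0.87 and 0.87, and 643, 751 or 754 genes in all. Without the 3 deep libraries 0 members and 1 of all genes passed, and the members' median was 0.25. With the log2 total count as a covariate 0 of all genes passed, and the members' median was 0.75. Since nearly every gene lost its call in those fits, the counts of 0 are no result about the members.

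**Figure D2:**
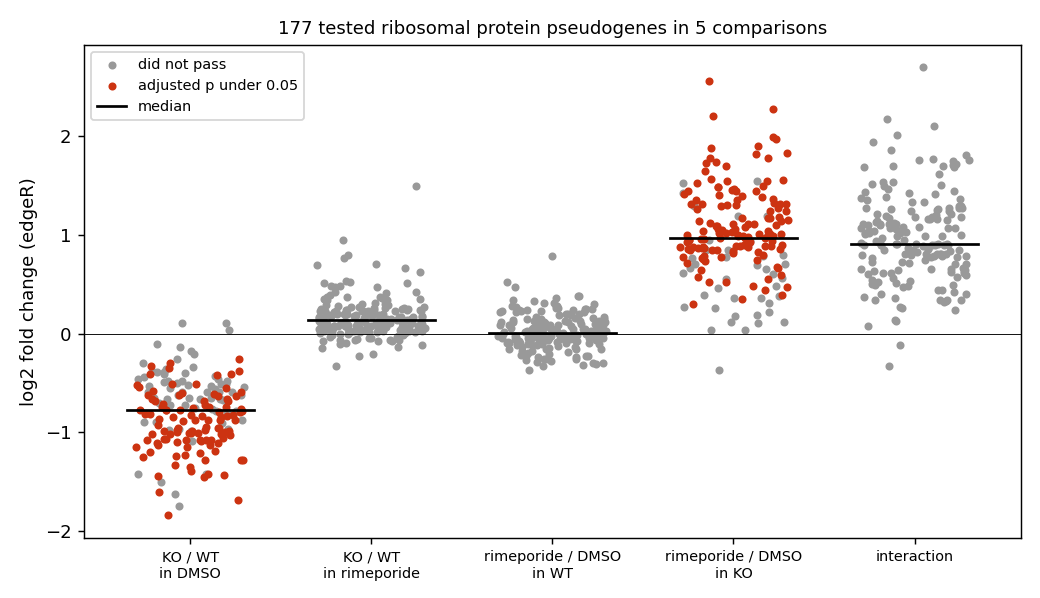
Log2 fold changes from edgeR of the 177 tested pseudogenes in the 4 comparisons and the interaction, with the median as a line and members at an adjusted p under 0.05 in red. The medians are -0.78, 0.14, 0.01, 0.97 and 0.91 from left to right, and members passed in the first comparison (108) and the fourth (135).

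Among the 6 members with the smallest p here were Rpl31-ps16, Rps2-ps8, Rpl31-ps9 and Rpl30-ps3. Rps2-ps8, a copy of the gene of a small subunit protein, had 3.78, 10.1, 3.45 and 3.02 CPM in KO with DMSO and 15.6, 16.4, 21.7 and 10.7 CPM with rimeporide. Replicate 2 with DMSO came within 1 CPM of the lowest library with rimeporide. It rose by 1.78 ± 0.32 (edgeR adjusted p = 0.00369), and its parent Rps2 rose by 0.49 ± 0.12 (adjusted p = 0.00974). Rpl31-ps16 had 17.5, 21.3, 22.6 and 15.5 CPM with rimeporide and rose by 1.47 ± 0.25 (adjusted p = 0.00348), against 0.29 ± 0.09 for Rpl31 (adjusted p = 0.0244). Rpl32-ps has no read-length stretch in common with another annotated gene, though its coding sequence is 95.1% identical to that of Rpl32. It had 0.831, 1.15, 1.98 and 0.488 CPM in KO with DMSO and 4.39, 4.39, 5.68 and 2.79 CPM in KO with rimeporide. Its level rose by 1.99 ± 0.40 (edgeR adjusted p = 0.00396). It was also among the members that fell in KO against WT in DMSO (-1.45 ± 0.41, adjusted p = 0.0161), from 4.13, 3.53, 2.63 and 2.05 CPM in WT.

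All 5 Rpl19 members rose with rimeporide in KO, and 47 of the 52 parents had at least 1 member that rose. The most abundant member did not pass: Rpl10-ps3 had 1254, 1091, 1025 and 1135 CPM in KO with rimeporide and a log2 fold change of 0.04 ± 0.07. Rps27a-ps1 had the only negative value of a tested member, -0.37, and did not pass.

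In WT cells 0 members passed for rimeporide against DMSO (edgeR, 0 at an unadjusted p under 0.05 and 0 by DESeq2), and 0 of all genes passed in either direction (0% and 0%). The median over the members was 0.01, with values from -0.37 to 0.79. The smallest p belonged to Rpl13-ps6, which had 26.8, 15.96, 21.5 and 16.3 CPM with DMSO and 23.4, 28.5, 40.4 and 18.9 CPM with rimeporide, overlapping groups with an adjusted p of 0.919. In KO against WT, both with rimeporide, 0 members passed by edgeR (2 at an unadjusted p under 0.05, and 0 by DESeq2), where 2.32% of all genes fell and 5.14% rose. The median was 0.14 and 152 of the 177 values were positive. Rpl21-ps6 had the smallest p, with 1.62, 0.561, 1.72 and 0.431 CPM in WT and 1.65, 2.98, 4.10 and 3.44 CPM in KO, a log2 fold change of 1.497 ± 0.571 (adjusted p = 0.136). Rpl29-ps2, next in order, had 4.52, 4.55, 10.0 and 4.83 CPM in WT and 5.94, 9.07, 15.7 and 9.12 CPM in KO (0.77 ± 0.34, adjusted p = 0.225). A p that misses the threshold does not show that the levels were equal.

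The interaction, which asks whether the rimeporide effect differed between KO and WT, had a median log2 value of 0.91 over the members. 0 of them passed (edgeR, smallest adjusted p = 0.0952), while 129 had an unadjusted p under 0.05 (2277 of all 12272 genes), and 0.0163% of all genes passed as higher and 0% as lower. Other settings gave calls. By the Wald test of DESeq2, 32 of 142 members with an adjusted p passed as higher, and 276 of all genes in either direction. Without a filter on low counts 81 of 185 members passed as higher, and 630 genes in all. Leaving out replicate 2 of KO with DMSO gave 132 members and 1497 genes in all, and leaving out replicate 3 of WT with rimeporide gave 51 members and 253 genes. The smallest p belonged to Rpl31-ps16, with a value of 1.52 ± 0.35.

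Each member was next set against its parent in the same library. All members together had 17.6, 19.1, 17.5 and 16.3 counts per 100 parent counts in WT with DMSO and 12.4, 17.8, 12.9 and 12.3 in KO with DMSO. In WT with rimeporide they had 16.1, 16.1, 18.9 and 15.7, and in KO with rimeporide 17.7, 18.2, 18.4 and 17.2. The 3 deep libraries had the 3 lowest ratios and the other 13 libraries lay between 15.7 and 19.1. Replicate 3 of KO with rimeporide, the next deepest, had one of the higher ratios.

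**Figure D3:**
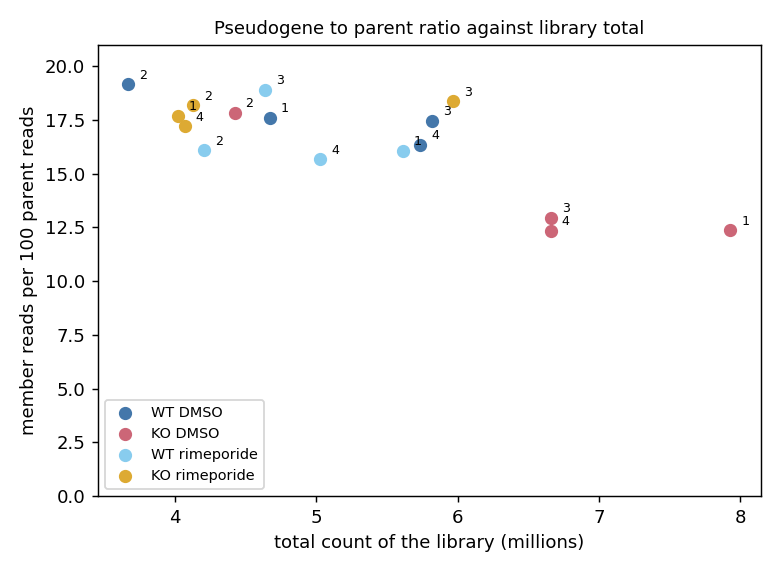
Counts of the 185 pseudogenes per 100 counts of their parents against the total count of the library, with 1 point per library, coloured by group and numbered by replicate. The 3 libraries above 6000000 counts, all from KO with DMSO, lie at 12.3 to 12.9, and the other 13 lie at 15.7 to 19.1.

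The log2 ratio to the parent was tested with limma over 256 pairs, 177 of them with members. The pairs took in every symbol with the ending -ps, of any gene family, where pseudogene and parent both passed the filter. For KO against WT in DMSO the ratio fell for 127 members and rose for 1, with a median of -0.64, where 56.6% of all pairs fell and 1.95% rose. Most of those pairs are the members themselves, and of the other 79 pairs 18 fell and 4 rose. Leaving out replicate 2 of KO with DMSO gave 154 pairs of members that passed, and leaving out its replicate 1, 4 or 3 or replicate 2 of WT with DMSO gave 37, 56, 81 or 62. Over all pairs 150 passed with all libraries, 200 in the first of these fits and 40, 63, 98 or 70 in the others. Without the 3 deep libraries 0 of all pairs passed, and the members' median was 0.03. Pair by pair, 172 of the 177 members had a log2 fold change lower than that of the parent. Of the 108 members that fell, 44 had a parent that fell and 64 a parent that did not pass.

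The 1 member with a ratio that rose was Rpl10-ps3. It had 107, 94.5, 101 and 126 counts per 100 counts of Rpl10 in WT with DMSO and 189, 107, 156 and 196 in KO with DMSO. Replicates 1, 3 and 4 of KO were above every WT library and replicate 2 was not. The log2 ratio rose by 0.57 (limma adjusted p = 0.00877).

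With rimeporide in KO the ratio rose for 150 members and fell for Rpl10-ps3 alone (limma, adjusted p under 0.05; 71.9% and 2.34% of all pairs), with a median of 0.76, and without the 3 deep libraries 0 of all pairs passed (median 0.11). Of the 135 members whose own level rose, 73 had a parent that rose and 62 a parent that did not pass. In the interaction of the ratio 88 members were higher and 1 lower (40.2% and 1.17% of all pairs). That count was 149 without replicate 2 of KO with DMSO. It was between 28 and 51 when any 1 of 9 other libraries was left out, among them replicates 1, 3 and 4 of KO with DMSO. Over all pairs 106 passed with all libraries, 189 without replicate 2 of KO with DMSO and 29 to 57 in the 9 other fits. Without the 3 deep libraries the members' median in the interaction was 0.14, against 0.835 with all libraries. Between genotypes under rimeporide the ratio passed for 0 members (3 at an unadjusted p under 0.05) and for 0 in rimeporide against DMSO in WT (0 unadjusted). In both of those comparisons 0% of all pairs passed.

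**Figure D4:**
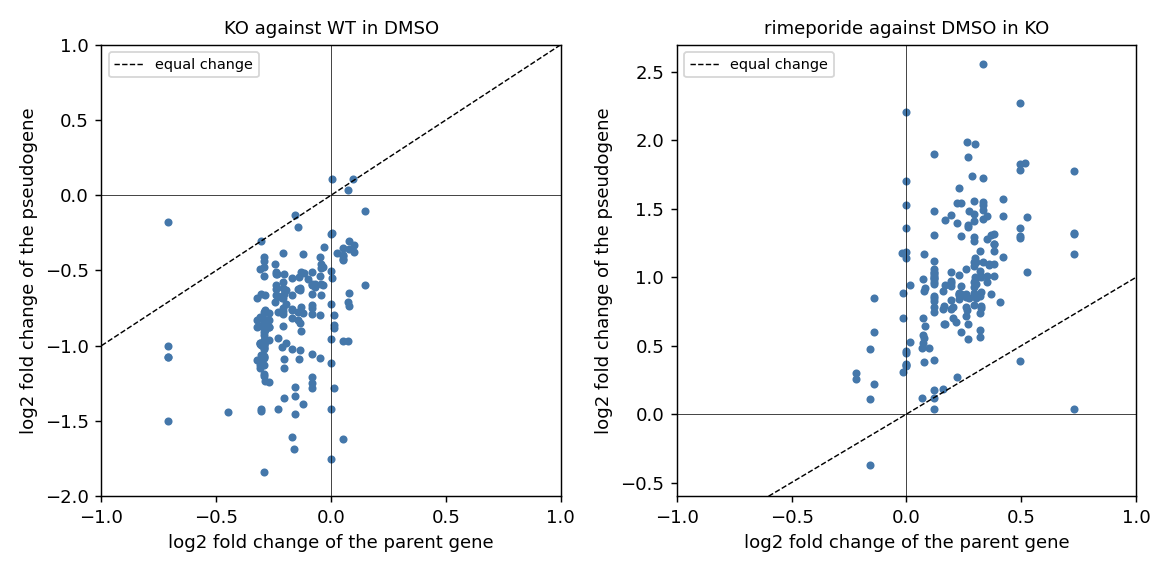
Log2 fold change of each of the 177 tested pseudogenes against that of its parent gene, for KO against WT in DMSO (left) and rimeporide against DMSO in KO (right), with a dashed line at equal change. On the left 172 members lie below the line, and on the right 172 lie above it.

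**Figure D5:**
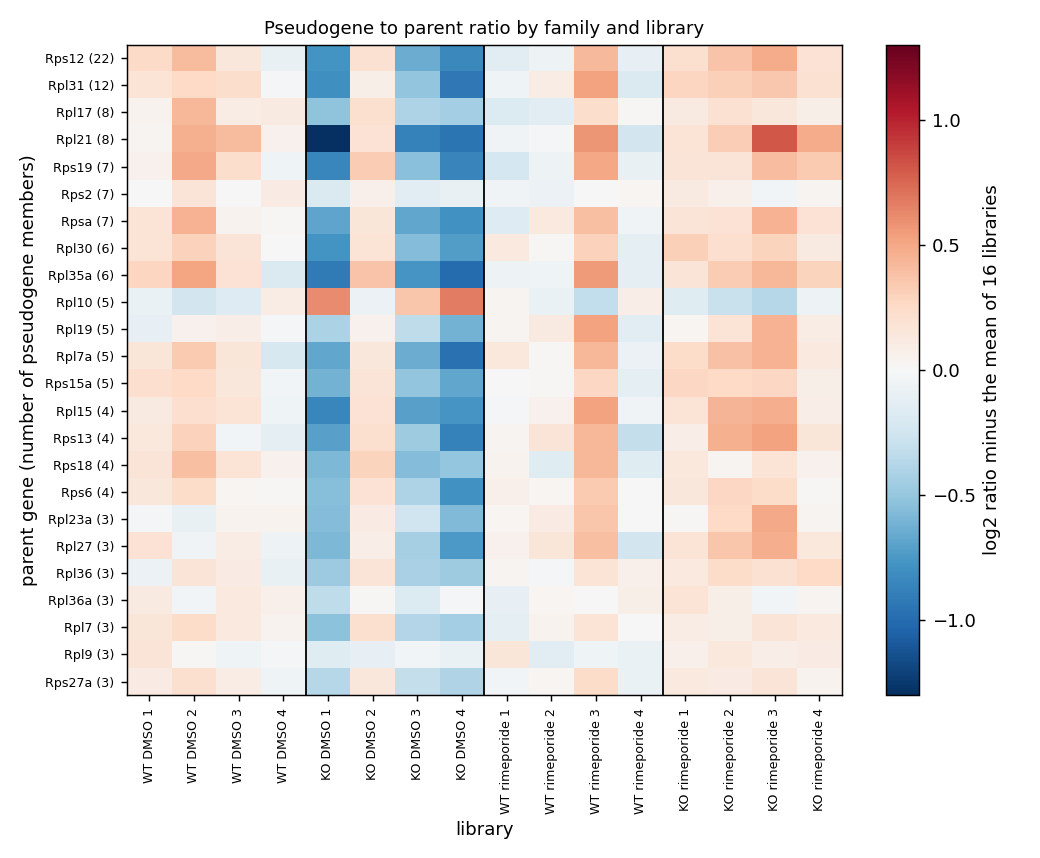
Log2 ratio of the summed pseudogene members to the parent gene, minus its mean over the 16 libraries, for parents with at least 3 members (number in brackets) in each library. Replicates 1, 3 and 4 of KO with DMSO are low in nearly all families, and the Rpl10 family, in which Rpl10-ps3 holds most of the counts, is high in the same libraries.

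The ratios by family and library show the same 3 columns in most families, and they show the Rpl10 family in the opposite direction. To keep together reads divided between a parent and its copies with the ending -ps, the counts of each family were added up. Any copies under other symbols stayed outside these sums. Of the 52 family sums 13 fell in KO against WT in DMSO and 0 rose, where 8.01% of all genes fell and 10.0% rose in the table with summed families. The Rps12 family fell by 0.40 ± 0.08 on the log2 scale (edgeR adjusted p = 0.000863) and the Rpl10 family by 0.45 ± 0.10 (adjusted p = 0.00231). With rimeporide in KO 30 family sums rose and 0 fell, where 7.47% of all genes rose and 5.87% fell. Without the 3 deep libraries 0 passed in both comparisons, with 432 of all genes passing in the first and 2 in the second. With all libraries 2165 of all genes passed in the first and 1603 in the second. Leaving out replicate 4 of KO with DMSO gave 7 and 8 family sums, where 1512 and 497 of all genes passed. Without replicate 2 of that group it was 25 and 37 family sums, with 3161 of all genes in the first. Leaving out replicate 2 or 3 of WT with DMSO or replicate 3 of KO with DMSO gave 7, 8 or 8 in the first. Of all genes 1592, 1700 or 1683 passed in those fits. Leaving out replicate 3 of KO with rimeporide gave 14 in the second, with 679 of all genes. Between genotypes under rimeporide 0 family sums passed, where 2.38% of all genes fell and 5.38% rose, and for rimeporide in WT 0 passed (0% of all genes). For the interaction it was 0 as well, where 0.0166% of all genes passed as higher and 0% as lower.

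The members were also grouped by the share of their stretches found in no other gene, over the whole transcript. The groups were not tested against each other. Of the members with under 25% of their stretches their own, 47 of 66 tested fell, with a median log2 fold change of -0.76. From 25% to 75% it was 43 of 76 (median -0.76), and from 75% to under 100% it was 15 of 32 (median -0.90). Both tested members with every stretch their own fell (median -1.02). The median level also differed between these groups, at 38.9, 10.6, 4.86 and 3.05 CPM in the same order. Among members with a coding identity of 98% and over, 73 of 112 fell, and between 95% and 98% 32 of 58. Inside another gene on the same strand 13 of 19 fell (median -0.88), on the opposite strand 29 of 41 (median -0.75) and outside genes 65 of 116 (median -0.78). Across the 176 tested members with an annotation Spearman's rho with the change in KO against WT in DMSO was -0.18 for the share of own stretches, 0.25 for coding identity and 0.37 for mean CPM. These are descriptions across members, which share libraries and often sequence.

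Among other genes of the ribosome the medians were nearer 0. Of the 83 ribosomal protein genes 18 (21.7%) fell and 0 rose in KO against WT in DMSO, with a median of -0.14. With rimeporide in KO 37 (44.6%) rose. Over all genes 8.56% fell and 10.1% rose in the first of these comparisons, and 6.35% fell and 8.43% rose in the second. The smallest p belonged to Rpl10, to Rpl22 (-0.45 ± 0.10, edgeR adjusted p = 0.00267), whose protein binds RNA outside the ribosome as well, and to Rps12. The 52 parents had 10 that fell (19.2%) and 25 that rose (48.1%) in the same comparisons. Of 24 translation factor genes 3 fell in KO with DMSO (12.5%, near the 8.56% of all genes), namely Eif4a2, Pabpc1 and Eif1 (-0.39, -0.33 and -0.20). Of 30 ribosome biogenesis genes Rrs1 rose (0.57) and Utp4 fell (-0.43), or 3.33% in each direction, below the shares over all genes. Pseudogenes of other families, 101 of which were tested, had 15 that fell (14.9%) and 0 that rose, with a median of -0.40. With rimeporide in KO 25 of them rose (24.8%), with a median of 0.57.

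Markers of microglia were present in all libraries, with all 15 tested and a summed level between 5262 and 6351 CPM. In KO against WT 2 of the 15 (13.3%) fell in DMSO (median -0.17) and 4 (26.7%) in rimeporide, and 0 rose in both. Over all genes 8.56% fell and 10.1% rose in DMSO, and 2.32% fell and 5.14% rose in rimeporide. With rimeporide in KO 2 markers rose and 1 fell (13.3% and 6.67%, against 8.43% and 6.35% of all genes). In WT 0 passed by edgeR (0 at an unadjusted p under 0.05), as over all genes. Neuron markers had a summed level of 7.48 to 14.5 CPM in WT and 45.9 to 82.8 CPM in KO with DMSO, and 7.80 to 14.5 and 48.0 to 70.4 CPM with rimeporide, and all 5 tested of 10 rose in KO with DMSO. Astrocyte markers had 16.5 to 30.3 and 83.3 to 111 CPM with DMSO and 19.5 to 34.0 and 72.2 to 99.1 CPM with rimeporide, and 7 of 10 rose. Of the oligodendrocyte lineage markers 3 of 7 tested rose and 1 fell, with sums of 72.2 to 127 and 86.2 to 95.7 CPM with DMSO, and Mog was at 0 in all 4 libraries of KO with DMSO. The neuron and astrocyte markers were high in KO under both treatments, and highest in replicate 2 of KO with DMSO, where the members lay in the WT range. Their part in the members' change was not tested.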

How the data were processed

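The authors deposited expected counts per gene, which came from Salmon on GRCm39 per the submitters' processing notes, and log2 CPM values, which were not used here. The libraries hold 3' tags with molecular identifiers, read as single ends of 75 bases, per the labels' protocols. Not given in the sources used here are the removal of duplicates before counting, the strand setting and the release of the annotation. Counts were rounded, which changed 0.0207% of the total, and tested with edgeR 4.0.16 in R 4.3.3: filterByExpr (minimum count 10, minimum total 15; 12272 genes), TMM scaling, 1 mean per group over all 16 libraries, Benjamini-Hochberg adjustment over all genes tested, threshold 0.05. SEs derive from the F test. Log2 ratios to the parent (pseudocount of 0.5 counts) were tested with limma 3.58.1 over 256 pairs of any family with the ending -ps. DESeq2 1.42.0, other filters and scalings, replicate blocks and leaving out each library were alternatives. Totals ran from 3666413 to 7929499 counts. The scripts were tested on simulated data.

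The labels call the libraries biological replicates, 4 per genotype, and do not say if libraries of both treatments that share a number also share a culture, so p-values measure the spread between these libraries. The members and lists were chosen with earlier results of these data known. Named were Grn, the 12 most abundant members, the 6 with the smallest p in each comparison (in part), those next to the limit, their parents and up to 3 genes per list with the smallest p. Other members named (Rpl10-ps1, Rpl10-ps2, Rpl32-ps, Rps12-ps11, Rps27a-ps1, Rpl36-ps12 and the families) were chosen after their values were seen. Results for a few genes are not reported here. Sequences and annotation came from GENCODE M21 (GRCm38), another build than the authors used, so no coordinates are given; members were matched by Ensembl identifier (184 of 185). Alignments used Biopython 1.88 in Python 3.11.15.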

Additional observations from a re-analysis of the deposited data

Results flagged for a closer look

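In groups of 4 libraries, 1 library lay far from the other 3 in 13 of 96 checks, where the rule used marks about 1 in 20 groups by chance. The checks use the same libraries, and the members often share sequence, so they are not separate observations. The number flagged therefore cannot be read against that rate. Replicate 2 of KO with DMSO stood above the other 3 libraries of its group in the counts of members per 100 parent counts (17.8, others 12.3 to 12.9). The same library stood above its group in Rps27a-ps2 (141 CPM, others 82.4 to 88.8), Rps16-ps2 (104 CPM, others 61.1 to 65.9), Rps12-ps6 (38.5 CPM, others 14.5 to 17.98) and Rps2-ps8 (10.1 CPM, others 3.02 to 3.78).

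Replicate 3 of WT with rimeporide stood above its group in the counts of members per 100 parent counts (18.9, others 15.7 to 16.1). It also did in Rps27a-ps2 (169 CPM, others 117 to 123), Rpl7-ps7 (116 CPM, others 98.7 to 102), Rps16-ps2 (134 CPM, others 100.4 to 103) and Rps12-ps4 (132 CPM, others 88.5 to 95.1). Its total count was 4636460, within the range of its group.

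Single values stood apart in 3 further cases. The parents' sum in replicate 4 of WT with DMSO was 38958 CPM, below the 42420.2 to 43005 CPM of the others. Rpl10-ps3 had 1268 CPM in replicate 1 of WT with rimeporide, above 1103 to 1131 CPM. Rpl36a-ps1 had 95.3 CPM in replicate 2 of WT with rimeporide, below 104 to 105 CPM.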

How the results depend on the processing

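Counts are of members, of member ratios (both directions) and of family sums past the threshold. The alternatives in the choice of libraries by total and the depth covariate were chosen after seeing the data. Only libraries of up to 6000000 counts (13, with replicate 2 alone in KO with DMSO) gave 0 members, 0 ratios and 0 family sums for KO against WT in DMSO and for rimeporide in KO, and 0 ratios in the interaction. The log2 total count as a covariate gave 40 members for KO against WT in DMSO and 0 for rimeporide in KO. The interaction passed for 32 members by DESeq2, 81 without a filter on low counts, 81 in a fit with a block for each replicate number and 78 in a replicate block within genotype. The block also gave 28 family sums for KO against WT in DMSO, and changed no other count by over 1.5 times. Same-numbered libraries had correlations of their deviations from -0.004 to 0.21, not over 0.1 in every pair, so the numbers were not taken as pairs. In most of these comparisons, but not in all, a library correlated best with the library of its own number. Leaving out each library in turn gave for KO against WT in DMSO 52 to 148 members, 37 to 154 ratios and 7 to 25 family sums. For rimeporide in KO it gave 77 to 163 members, 106 to 165 ratios and 8 to 37 family sums, and for the interaction 0 to 132 members and 28 to 149 ratios. The cause of these differences was not tested. Counts for KO against WT in rimeporide and for rimeporide in WT were 0 under every alternative run. Under DESeq2 size factors, TMM without ribosomal and pseudogene symbols, 1 CPM in 4 libraries, only the groups compared and members of at least 5 CPM, no count moved by over 1.5 times, nor did one with a ratio pseudocount of 2.

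Of the named members, signs turned for rimeporide in KO with libraries of up to 6000000 counts for Rpl10-ps3 (-0.030), Rps27a-ps3 (-0.11), Rps23-ps2 (-0.053), Rps27a-ps2 (-0.060) and Rpl7-ps7 (-0.15). Rpl10-ps3 also turned without a filter (-0.0060), with the depth covariate (-0.027), and without replicate 3 of KO with DMSO or replicate 1 of KO with rimeporide (range over single libraries left out -0.025 to 0.079). Rps26-ps1 turned without replicate 3 of KO with rimeporide (range -0.044 to 0.20), and for KO against WT in DMSO with the covariate (-0.0075). Totals of 3666413 to 7929499 counts leave members near 1 CPM with few counts each.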
